A study of Mus musculus with 8 samples.

Results

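Embryoid bodies grown for 15 days from mouse parthenogenetic stem cells were compared with the undifferentiated stem cells, across all genes that could be named. The comparison used 5 of the 8 arrays of the series, 2 of embryoid bodies (EB_PSC 1 and 2) and 3 of parthenogenetic stem cells (PSC 1, 2 and 3), taken by their titles. Of 45101 probe sets, 34958 carry a single gene symbol, and for each of the 18194 genes they stand for the brightest probe set by its mean over the 8 arrays was used. Both groups carry the strain label C57BL/6. PSC were isolated on day 6 from blastocysts of strontium-activated oocytes taken from superovulated females, so cells of both groups descend from unfertilised eggs and hold no paternal chromosomes. EB_PSC are cultures of PSC that were put through an embryoid body assay. The other 3 arrays, of the embryonic stem cell line R1, entered the fit only to help estimate the spread between arrays of a group. The sources used here do not give the medium of the embryoid bodies, the number of PSC lines or clones or how many bodies were pooled per array. The labels do not say whether the samples of a group were grown separately, so the p-values reflect only the spread among these samples, which may be technical.

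An embryoid body is a free-floating aggregate in which pluripotent cells, released from the factors that hold them undifferentiated, form all 3 germ layers without the body plan of an embryo. Beating heart muscle, vessels, yolk-sac-like blood and an outer layer of primitive endoderm are its well-known products. The arrays read the pooled RNA of all cells of a body, so fewer cells of a type and less RNA per cell cannot be told apart. Values are on the log2 scale of RMA, a summary of the probes of a probe set after background correction and normalization, and differences are EB_PSC minus PSC in log2 units ± the standard error of the fit. A probe set whose group mean lay below 5.44, the median of all deposited values, is called dim there. Dim signals are compressed towards the background, so a difference that involves a dim group is a lower bound for the probe set used. Such a bound, written as at least, does not cover the other probe sets of the gene, which can give less. Where a gene has several probe sets the choice matters. With the mean of all of them, 92 of the 346 called genes named in the text were smaller by over 1.5 times and 17 lost the call. A further alternative leaves out probe sets whose ID ends in _x_at or _s_at, which can match more than 1 transcript. Levels of different genes come from different probes and are not set against each other.

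Of 18194 genes, 7995 (43.9%) passed limma at an adjusted p below 0.05, 3417 (18.8%) higher and 4578 (25.2%) lower in embryoid bodies. The median difference over all genes was -0.09. With cyclic loess normalization the split turned to 4185 higher and 3566 lower, so an excess of small falls in the whole table rests on the scaling, and shares of list members are read against these backgrounds. At a difference of at least 1 log2 unit, 1557 genes (8.56%) were higher and 1350 (7.42%) lower. The arrays of both groups did not overlap in 62.8% of all genes. As a measure of RNA integrity, the 3' minus 5' signal of the Gapdh control probe sets differed by -0.05 (exact two-sided permutation test, p = 0.4; 2 against 3 arrays cannot go below 0.1) and that of Actb by -0.14 (p = 0.8).

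The 12 largest rises were Hbb-y (9.89), Ankrd1 (8.71), Cryab (6.97), Hbb-bh1 (6.66), Nrp1 (6.55), Afp (6.53), Actc1 (6.53), Pmp22 (6.41), Postn (6.27), Vnn1 (6.23), Asb4 (6.21) and Lum (6.16). They hold embryonic globins, a titin-associated muscle protein and alpha-crystallin B, a chaperone of heart and skeletal muscle. They also hold a neuropilin that serves as co-receptor for semaphorin and VEGF, alpha-fetoprotein of yolk sac and fetal liver, and the matrix proteins periostin and lumican. Except for Pmp22, which lay just above the limit, all 12 were dim in PSC. The 12 largest falls were Calml4 (-4.50), Esrrb (-3.62), Ano9 (-3.49), Fos (-3.45), Hsf2bp (-3.45), Mybl2 (-3.31), Pla2g1b (-3.23), Gna14 (-3.18), Serpinb6c (-3.17), Mael (-3.08), Mymx (-3.04) and Klf4 (-3.03). Among these, Esrrb and Klf4 are factors of the naive pluripotent state, Mybl2 is a cell-cycle transcription factor, Fos an immediate early gene and Mael a germ cell gene of the piRNA pathway. The rises reached much further than the falls, from 6.16 to 9.89 against -3.03 to -4.50. Limma adjusted p of these 24 genes ran from 2.34e-13 to 8.85e-08. Hbb-y was at 6.20 without _x_at and _s_at probe sets.

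Pluripotency genes were lower but still above the dim limit after 15 days. All 20 measured factors of the naive state were called lower, against 25.2% of all genes, with a median of -2.20. Pou5f1, which encodes the POU factor at the centre of pluripotency, read 11.63, 11.75 and 11.72 in PSC and 9.54 and 9.59 in embryoid bodies. Nanog read 11.52, 11.33 and 11.44 in PSC and 9.41 and 9.61 in embryoid bodies. In both genes the 2 groups lay far apart and the arrays of a group lay close together. Sox2, which neural precursors also use, read 12.41, 12.08 and 12.69 in PSC and 11.41 and 11.23 in embryoid bodies and fell by 1.07 ± 0.16 (limma adjusted p = 0.000106). Lin28a, an RNA-binding protein of pluripotent and early embryonic cells, fell by 1.04 ± 0.16. Genes of the primed epiblast, the state after implantation, were not called lower with them: 6 of 12 were called higher, 0 lower and 6 did not pass. Fgf5, the classic marker of that state, was dim in PSC at 4.55, 4.42 and 4.45 and read 8.99 and 8.07 in embryoid bodies, a rise of at least 4.06 ± 0.21 (limma adjusted p = 4.34e-09). Otx2, a head and epiblast homeobox factor, rose by 1.11 and Pou3f1 by 1.08. With their probe sets averaged, Lin28a was at -0.32 and Pou3f1 at 0.36, and neither passed, while Fgf5 was at 2.42.

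Several early mesoderm genes were higher at day 15. Of 17 measured genes of primitive streak and early mesoderm, 10 were called higher and 3 lower, with a median of 0.65. The T-box factor Eomes rose by 3.37 ± 0.19 from 6.10, 5.96 and 6.06 to 9.80 and 9.03, and the streak homeobox gene Mixl1 by 1.87 ± 0.13 from 5.62, 5.57 and 5.76 to 7.65 and 7.39. The PDGF receptor gene Pdgfra, a mark of paraxial and cardiac mesoderm, rose by 2.86. The 3 that were lower, Fgf17 (-1.37), Mesp2 (-0.58) and Tbx6 (-0.53), include both genes of presomitic mesoderm and segmentation, Mesp2 and Tbx6, which were dim in both groups. Brachyury is not analysed here. Germ cell genes went the other way, with 0 of 21 called higher and 15 lower (median -0.67). The largest were Mael (-3.08), Piwil2 (-2.52), Ddx4 (-2.45), Tfap2c (-2.37), Tdrd12 (-2.22) and Prdm14 (-1.82), of which Mael, Piwil2, Ddx4 and Tdrd12 act in the piRNA pathway and Tfap2c and Prdm14 are factors of both naive cells and germ cell precursors. Tbx6 passed narrowly, and the call was lost for Tbx6 without EB_PSC 1, PSC 1 or PSC 2 (-0.50 to -0.41).

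Heart muscle genes had the largest share of members called higher among the lineage lists. Of 25 measured genes of the cardiac contractile apparatus, 22 were called higher against 18.8% of all genes, 1 were lower and 2 did not pass, with a median of 2.24. Actc1, cardiac alpha-actin of the thin filament, read 4.70, 4.52 and 4.71 in PSC and 11.01 and 11.32 in embryoid bodies. Tnnt2, the tropomyosin-binding troponin, read 3.33, 3.49 and 3.34 in PSC and 8.61 and 9.05 in embryoid bodies. Myl7, the atrial regulatory light chain, went from 6.27, 6.22 and 5.93 to 10.23 and 10.96. Both embryoid body arrays stood several log2 units above every PSC array in these genes, and EB_PSC 2 was the higher of the pair in each. Myl2, the ventricular light chain, gave the widest gap between the pair, 8.67 on EB_PSC 1 and 10.24 on EB_PSC 2 against 4.65, 4.55 and 4.42 in PSC. The heavy chains rose as well, Myh6 by 3.21 ± 0.28 and Myh7 by at least 4.07 ± 0.17 (limma adjusted p = 7.74e-07 and 4.55e-10). The only member called lower was Tcap, a Z-disc protein, at -0.41 with both groups near the dim limit. The members that did not pass, Myoz2 and Xirp1, were dim in both groups. The natriuretic peptide genes, products of atrial and of stretched muscle, read 6.59 and 7.48 for Nppa against 3.98, 4.24 and 3.98 in PSC and 8.74 and 9.32 for Nppb against 5.74, 5.79 and 5.51; the latter was named after its values were seen. The call was lost for Tcap without EB_PSC 1, EB_PSC 2, PSC 1, PSC 2 or ESC 3 (-0.42 to -0.34), with cyclic loess (-0.31) and with a trended robust prior (-0.41).

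The promoters of contractile genes carry a known element, the CArG box, to which serum response factor binds. RefSeq promoter windows on GRCm38.p6, from 250 bases before to 50 after the annotated start, were held for 22 of the 25 sarcomere genes. A CArG box was found on either strand in 5 of these 22 (22.7%), Actc1, Ldb3, Myl3, Myl7 and Myom1, and all 5 were called higher, with calls lost for Ldb3 with its probe sets averaged (0.09) and for Myom1 without EB_PSC 2, PSC 1 or PSC 3 (0.23 to 0.89) and without the R1 arrays (0.86). In the whole sarcomere list 22 of 25 genes were called higher. Among 27025 genes with a window, 488 (1.81%) held one. Of 13 smooth muscle genes with a window, 1 held it, Myl9. Only the letters CCWWWWWWGG, with W for A or T, were counted, so boxes that depart from them were missed. The windows of Actc1, at chr2:114052826-114053125 on the minus strand, and of Myl7, at chr11:5898733-5899032 on the minus strand, are shown because these genes stand for the rise of the heart list. Capitals mark the CArG box, whose first base lies at position -47 from the annotated start in Actc1 and at -61 in Myl7.
Actc1: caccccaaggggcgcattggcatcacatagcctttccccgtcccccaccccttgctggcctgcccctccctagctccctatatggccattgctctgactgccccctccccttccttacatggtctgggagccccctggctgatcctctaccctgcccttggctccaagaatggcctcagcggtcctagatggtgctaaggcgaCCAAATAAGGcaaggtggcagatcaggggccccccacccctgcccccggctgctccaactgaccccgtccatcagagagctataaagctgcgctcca
Myl7: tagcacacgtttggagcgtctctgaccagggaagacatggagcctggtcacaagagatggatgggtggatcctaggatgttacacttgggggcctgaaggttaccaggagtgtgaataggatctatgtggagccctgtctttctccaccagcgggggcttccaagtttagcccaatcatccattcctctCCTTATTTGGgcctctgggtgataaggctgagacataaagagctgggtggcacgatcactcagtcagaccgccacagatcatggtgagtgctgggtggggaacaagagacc
A match of letters is a description of the window, and binding was not measured.

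Most regulators of heart development were higher, and fewer of the ion-handling genes of mature muscle. Of 19 cardiac transcription factors, 12 were called higher and 0 lower (median 0.80). The largest were Tbx20 (5.69), Hand2 (4.97), Myocd (3.12), Gata6 (2.55), Mef2a (2.43) and Irx3 (2.07), among which Tbx20 and Hand2 pattern the heart fields and Myocd is a coactivator of serum response factor. Isl1, the marker of second heart field progenitors, rose by at least 1.64 ± 0.17 and Gata4 by at least 1.34 ± 0.14 (limma adjusted p = 3.44e-06 and 2.8e-06). Nkx2-5, an early factor of heart precursors, read 6.24, 6.05 and 6.09 in PSC and 6.33 and 6.57 in embryoid bodies, a difference of 0.32 ± 0.14 that did not pass (limma adjusted p = 0.0766) but passed with cyclic loess (0.45). Of 22 genes of calcium cycling and ion channels, 9 were called higher and 2 lower, with a median of 0.27. Without EB_PSC 2 the counts were 7 and 1 and the median 0.17. The sodium-calcium exchanger gene Slc8a1 rose by at least 2.14, the connexin gene Gja1 by 1.45 and the junctophilin gene Jph2 by 1.16. The calcium pump gene Atp2a2 was already at 11.93, 12.01 and 11.84 in PSC and fell by 0.39, and Kcnq1, a potassium channel dim in both groups, fell by 0.51. Pln, which encodes phospholamban, the pump's inhibitor, was at 6.42 on EB_PSC 1 and 7.80 on EB_PSC 2 against 5.93, 5.89 and 5.66 in PSC, a rise of 1.28 ± 0.28 (limma adjusted p = 0.0018) that was 1.97 without EB_PSC 1 and 0.59 without EB_PSC 2. Of 17 skeletal muscle genes, 2 were called higher and 3 lower; Myod1, Myog and Myf5, which direct skeletal muscle, were dim in both groups, with differences of -0.03, -0.29 and -0.01 that did not pass. Acta1, skeletal alpha-actin, which the embryonic heart also uses, rose by 3.99 ± 0.18. The falls were narrow, and calls were lost for Atp2a2 without EB_PSC 1, EB_PSC 2, PSC 1 or PSC 2 (-0.41 to -0.35), with cyclic loess (-0.25) and with its probe sets averaged (0.11) and for Kcnq1 without EB_PSC 1 (-0.41). Gja1 was at 0.78 without _x_at and _s_at probe sets, and Slc8a1 at 0.90 with its probe sets averaged. Most of the heart factors also rose less with their probe sets averaged, though they stayed called. Tbx20 was then at 2.78, Hand2 at 1.97, Myocd at 1.52, Gata6 at 1.38, Mef2a at 1.41 and Gata4 at 0.93. Irx3 stayed at 2.07 and Isl1 rose more, at 2.40.

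**Figure D1:**
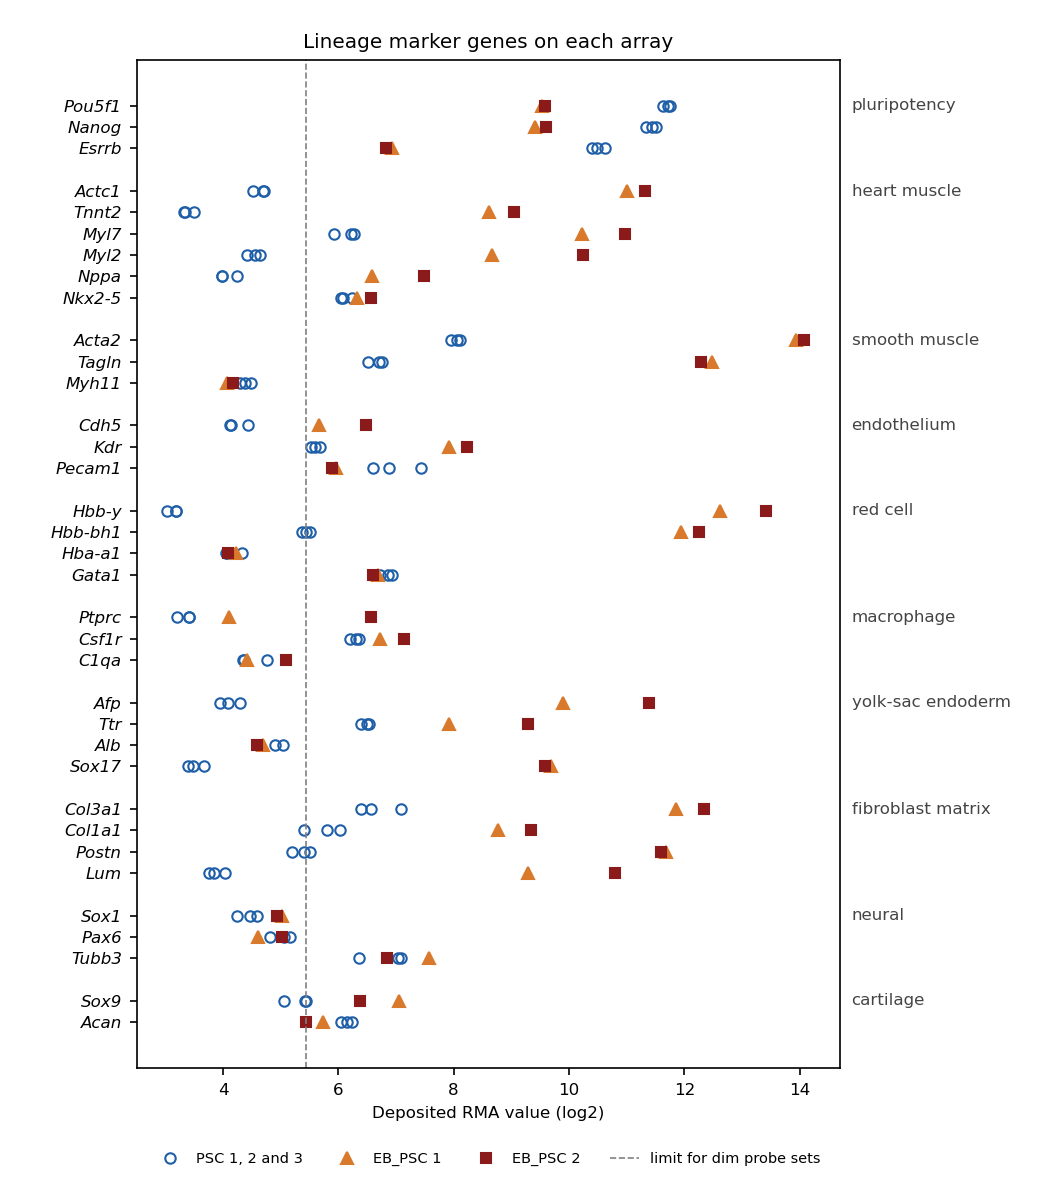
Deposited RMA values (log2, horizontal axis) of lineage marker genes on each PSC array (open circles), on EB_PSC 1 (triangles) and on EB_PSC 2 (squares), with the limit for dim probe sets as a dashed line. Most heart, smooth muscle, globin and matrix genes stand far to the right of PSC on both embryoid body arrays. The heart gene Nkx2-5 lies close to PSC, and Myh11, Hba-a1, Alb and Pax6 stay at the dim end on all 5 arrays.

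Contractile genes of smooth muscle were mostly higher, among them Acta2 and Tagln. Acta2, smooth muscle alpha-actin, read 8.06, 7.95 and 8.11 in PSC and 13.94 and 14.08 in embryoid bodies, a rise of 5.97 ± 0.13 or 62.6-fold (limma adjusted p = 2.27e-12). Tagln, which encodes the actin-binding protein transgelin, read 6.70, 6.52 and 6.75 in PSC and 12.49 and 12.29 in embryoid bodies, 53.1-fold higher. The arrays of each group agreed to within 0.3 log2 units in both genes. Of the 17 contractile genes, 10 were called higher, 3 lower and 4 did not pass (median 1.28). Others that rose were Myl9 (4.32), Cald1 (4.31), Actg2 (3.41) and Csrp1 (2.83). Myh11, the heavy chain of mature smooth muscle, was dim in both groups at 4.38, 4.49 and 4.30 and 4.07 and 4.18, with a difference of -0.27 that did not pass, so the late marker of the lineage did not move with the early ones. The 3 lower members were Aoc3 (-1.69), Hspb1 (-0.98) and Des (-0.48). Myofibroblasts and early heart muscle also use Acta2 and Tagln, so these genes do not define smooth muscle on their own. The size of the Acta2 rise rests on 1 probe set: the difference was 2.36 with its probe sets averaged, and 0.29 without _x_at and _s_at probe sets, which did not pass. Cald1 was at 2.64 without them, and the list median at 0.52. That median was 1.97 without EB_PSC 1 and 0.59 without EB_PSC 2, and the call was lost for Des without EB_PSC 2 or PSC 2 (-0.36 to -0.35), with cyclic loess (-0.34) and with its probe sets averaged (-0.19).

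The endothelial genes Kdr, Cdh5 and Tek rose while Pecam1, Vwf and Eng fell. Of 26 endothelial genes, 16 were called higher, 3 lower and 7 did not pass (median 0.91). Kdr, the main VEGF receptor, read 5.69, 5.52 and 5.59 in PSC and 7.92 and 8.24 in embryoid bodies, a rise of 2.48 ± 0.13 (limma adjusted p = 5.87e-09). Cdh5, the cadherin of endothelial junctions, read 4.11, 4.43 and 4.14 in PSC, 5.67 on EB_PSC 1 and 6.48 on EB_PSC 2, a rise of at least 1.84 ± 0.20 (limma adjusted p = 5.33e-06). With its probe sets averaged Cdh5 was at 0.86. The angiopoietin receptor gene Tek rose by 2.23, Ecscr by 3.50 and Icam2 by at least 2.86. Pecam1, an adhesion protein of vessels that naive stem cells also carry, read 6.60, 6.88 and 7.44 in PSC and 5.95 and 5.89 in embryoid bodies and fell by 1.05 ± 0.22 (limma adjusted p = 0.00135). Vwf fell by 2.07 and Eng by 0.50. Sox17 was the largest rise on the list at 6.12 ± 0.14, but it is a factor of endoderm as well as of arteries. Sox17 was at 1.35 without _x_at and _s_at probe sets, and the call was lost for Eng without EB_PSC 1, PSC 2 or PSC 3 (-0.47 to -0.27) and with cyclic loess (-0.34).

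Among blood genes the embryonic globins had the largest differences. Hbb-y, the embryonic beta-like globin of primitive red cells, had the largest difference of any gene, from 3.03, 3.18 and 3.18 in PSC to 12.63 and 13.42 in embryoid bodies. Hbb-bh1, also embryonic, read 5.37, 5.44 and 5.51 in PSC and 11.94 and 12.26 in embryoid bodies, and Hba-x, the embryonic alpha-like globin, read 5.03, 4.81 and 4.97 and 9.15 and 9.68. EB_PSC 2 was above EB_PSC 1 in each of the 3. Hba-a1, an adult alpha globin, was dim on all 5 arrays, at 4.33, 4.07 and 4.06 in PSC and 4.22 and 4.08 in embryoid bodies. Its difference was 0.00 (limma adjusted p = 0.992), and the sign of this small difference changed between alternatives. Probe sets that carry several gene symbols were not used, so this reading covers only what is named for Hba-a1 alone. Gata1 and Klf1, the regulators of red cell genes, did not pass, with differences of -0.19 ± 0.12 and -0.10 ± 0.12. Of 19 erythroid genes, 10 were called higher and 2 lower (median 0.37), and of 12 haem synthesis genes 2 were called higher and 4 lower (median -0.22). Alas2, the red cell form of the first enzyme of haem synthesis, was dim in both groups with a difference of 0.48 ± 0.16 (limma adjusted p = 0.0225), and the haem enzyme genes Ppox (-0.78), Cpox (-0.60) and Fech (-0.58) fell. Of 10 platelet genes, 3 were called higher, led by Pf4 (2.48) and Ppbp (1.55). Ppbp was at 0.94 without EB_PSC 2. Without EB_PSC 1 the erythroid median was 0.64 with 10 higher and 0 lower, and 6 platelet genes were called higher. The haem synthesis median was -0.06 with cyclic loess and -0.10 without _x_at and _s_at probe sets. Calls were lost for Alas2 without EB_PSC 2, PSC 2 or PSC 3 (0.22 to 0.48), for Cpox without EB_PSC 2 (-0.45), for Ppox with its probe sets averaged (-0.17) and for Fech with its probe sets averaged (-0.24) and without _x_at and _s_at probe sets (0.27).

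GATA factors bind short sites in globin promoters. The letters AGATAA or TGATAA occurred on either strand of the RefSeq window in 11 of 16 erythroid genes with a window (68.8%), against 5664 of 27025 genes (21%). The 11 are Alas2, Epb42, Epor, Ermap, Gfi1b, Hba-a1, Hba-x, Hbb-y, Hemgn, Klf1 and Rhag, so they hold members that rose, members that fell and members that did not pass. The windows of Hbb-y, at chr7:103853158-103853457 on the minus strand, and of Hba-x, at chr11:32276350-32276649 on the plus strand, are shown as those of an embryonic beta-like and an embryonic alpha-like globin that rose together. Capitals mark the site, which in Hbb-y lies on the opposite strand and so reads TTATCA.
Hbb-y: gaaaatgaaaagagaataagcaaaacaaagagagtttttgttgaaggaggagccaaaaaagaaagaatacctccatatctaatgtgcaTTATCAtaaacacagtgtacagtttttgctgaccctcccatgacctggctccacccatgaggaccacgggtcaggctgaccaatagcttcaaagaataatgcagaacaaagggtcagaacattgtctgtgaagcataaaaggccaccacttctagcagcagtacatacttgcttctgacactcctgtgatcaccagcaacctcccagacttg
Hba-x: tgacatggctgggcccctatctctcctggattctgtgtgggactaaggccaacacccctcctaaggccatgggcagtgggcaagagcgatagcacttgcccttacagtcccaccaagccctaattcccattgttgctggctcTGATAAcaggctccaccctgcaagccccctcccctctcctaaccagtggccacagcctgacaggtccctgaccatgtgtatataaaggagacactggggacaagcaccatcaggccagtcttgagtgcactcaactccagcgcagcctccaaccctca
The window of Hba-a1, which did not pass, holds the letters too.

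Several secreted products of visceral endoderm rose, while others fell and albumin did not pass. Afp, the alpha-fetoprotein of yolk sac and fetal liver, read 4.08, 3.95 and 4.30 in PSC, 9.90 on EB_PSC 1 and 11.38 on EB_PSC 2. Ttr, the carrier of thyroid hormone and retinol, read 6.53, 6.49 and 6.40 in PSC, 7.92 on EB_PSC 1 and 9.28 on EB_PSC 2. Both rose beyond the spread (limma adjusted p = 1.11e-09 and 2.43e-05), and in both EB_PSC 2 was higher by more than 1 log2 unit. Apoa1, an apolipoprotein of yolk sac and liver, rose by 1.61 ± 0.13 with the pair at 7.47 and 7.22. Alb, the albumin of hepatocytes, was dim on all 5 arrays, at 4.91, 5.04 and 4.62 and 4.69 and 4.59. Of 30 genes of visceral endoderm and plasma proteins, 13 were called higher and 7 lower (median 0.25). Spink1, a secreted trypsin inhibitor, rose by 5.47, Rbp4, the retinol carrier, by 5.07 and Apom by 2.56. The lower members were led by Apoc2 (-1.74), Apoe (-1.67) and Amn (-1.25); Amn encodes the partner of cubilin in the uptake receptor of visceral endoderm, whereas Cubn itself rose (7.21 and 6.19 against 4.73, 5.05 and 4.44). Without EB_PSC 2 the list median was 0.06. Cubn was at 0.65 without _x_at and _s_at probe sets. With its probe sets averaged Ttr rose far more, at 5.63, whereas Afp was at 5.02 and Apom at 1.62.

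Of 18 endoderm transcription factors, 6 were called higher, 0 lower and 12 did not pass. Sox17 read 3.48, 3.39 and 3.68 in PSC and 9.69 and 9.58 in embryoid bodies, and the pioneer factor gene Foxa2 read 4.92, 4.70 and 4.64 and 7.73 and 7.34. Foxa1 rose by at least 4.66. Hnf4a, which drives both visceral endoderm and hepatocyte genes, differed by -0.17 ± 0.20 (limma adjusted p = 0.533), and its PSC and embryoid body arrays overlapped. Of the markers of gut, lung and pancreas epithelium, 5 of 20 were called higher and 3 lower, and beside Spink1 the largest rises were Krt20 (2.47) and Vil1 (1.45). Of the basement membrane and parietal endoderm genes, 15 of 23 were called higher and 1 lower (median 1.27). The collagen IV chains of basement membranes rose together, Col4a1 by 4.73 ± 0.13 and Col4a2 by 4.49 ± 0.15 (limma adjusted p = 2.01e-11 and 4.83e-11), and Dab2, an endocytic adaptor of extraembryonic endoderm, by at least 4.44. Lama5, an epithelial laminin chain, fell by 0.94. Without EB_PSC 2 the gut, lung and pancreas counts were 3 higher and 2 lower, and without PSC 2 also 3 higher. Sox17 was at 1.35 without _x_at and _s_at probe sets.

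Fibroblast matrix genes gave the largest number of members called higher among the lineage lists. Of 38 measured genes, 28 were called higher, 3 lower and 7 did not pass, with a median of 1.56. Postn, periostin, read 5.40, 5.19 and 5.51 in PSC and 11.69 and 11.59 in embryoid bodies. Col3a1, the collagen of soft tissue, read 6.56, 6.40 and 7.09 in PSC and 11.86 and 12.34 in embryoid bodies, 42.7-fold higher (limma adjusted p = 3.35e-10). Col1a1, the main chain of tendon and bone collagen, read 5.40, 6.03 and 5.81 and 8.77 and 9.35. Further large rises were Lum (6.16), Pdgfrb (5.03), Col5a2 (4.94) and Cthrc1 (4.48). Fn1, fibronectin, was already high in PSC and rose by 0.40 ± 0.14 (limma adjusted p = 0.0367). The 3 that fell were Mfap5 (-1.13), Thy1 (-1.02) and Fbln1 (-0.91). Lum differed within the pair, 9.29 on EB_PSC 1 and 10.80 on EB_PSC 2, whereas Postn and Pdgfrb did not differ by more than 0.3. The call was lost for Fn1 without EB_PSC 1, EB_PSC 2, PSC 1, PSC 3 or ESC 3 (0.32 to 0.49) and with its probe sets averaged (0.32).

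The other mesenchymal lists were mixed. Of 19 cartilage and bone genes, 6 were called higher and 3 lower (median -0.07). Sox9, the regulator of cartilage and of several other progenitors, rose by at least 1.41 ± 0.21 and Hapln1, a hyaluronan link protein that heart cushions also use, by at least 5.31 ± 0.13. Col2a1, the collagen of cartilage, rose by 0.72, while the proteoglycan gene Acan fell by 0.56 and Alpl, a phosphatase of bone and of stem cells, by 1.98. Of 14 epicardial and mesothelial genes, 7 were called higher, led by the simple keratins Krt8 (5.11 ± 0.17) and Krt18 (4.79 ± 0.14). Of the defining epicardial genes, Wt1 was dim in both groups and passed at 0.44 ± 0.17 (limma adjusted p = 0.049) although its arrays overlapped, and Upk3b fell by 0.57. Tbx18 (0.28) and Tcf21 (0.02) did not pass, but Tbx18 passed with cyclic loess (0.33) and Tcf21 with its probe sets averaged (1.46). In the list of stratified epithelium and desmosomes 10 of 30 were called higher, led by Krt8 (5.11), Krt18 (4.79), Dsp (4.47), Dsc2 (4.42) and Krt19 (3.23), and 8 lower, led by Cldn4 (-1.49), Pkp3 (-0.83) and Krt17 (-0.74). Krt5, Krt14 and Trp63, which define basal epidermis, did not pass, with differences of 0.00, -0.25 and -0.10. Krt14 passed without EB_PSC 1 (-0.52). Calls were lost for Col2a1 without EB_PSC 2 (0.44), for Acan without EB_PSC 2 (-0.41), for Upk3b without EB_PSC 2 (-0.45) and for Krt17 without EB_PSC 2 (-0.67), and also for Wt1 without EB_PSC 1, EB_PSC 2, PSC 2, PSC 3, ESC 1, ESC 2 or ESC 3 (0.28 to 0.56), without the R1 arrays (0.44), with a trended robust prior (0.44) and with array weights (0.42).

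Neuronal genes were more often called lower than higher, and neural progenitor genes mostly did not pass. Of 23 neural progenitor genes, 5 were called higher, 3 lower and 15 did not pass (median 0.09). Sox1, an early neural plate marker, was dim in both groups at 4.25, 4.59 and 4.47 and 5.03 and 4.94, and its difference of 0.55 ± 0.13 passed (limma adjusted p = 0.00389). Pax6 was dim in both groups with a difference of -0.20 ± 0.17 (limma adjusted p = 0.392). The oligodendrocyte lineage factors Olig1 and Olig2, which were above the dim limit in PSC, fell by 2.89 ± 0.21 and 2.67 ± 0.33. Of 25 neuronal genes, 5 were called higher and 11 lower, against 25.2% lower of all genes (median -0.32). Tubb3, neuronal tubulin, differed by 0.38 ± 0.25 with overlapping arrays (limma adjusted p = 0.262). Gap43, a growth cone protein, rose by at least 2.87, and Mapt (-2.76), Ina (-2.37) and Chga (-1.07) were lower. Of 18 glial and neural crest genes, 6 were called higher, led by Snai2 (4.10), Ednrb (4.10), Ets1 (4.05) and Twist1 (2.26), genes that mesenchyme or endothelium also uses, and the pigment cell genes Pmel (-2.61) and Mitf (-1.37) fell. Sox1 was at 0.07 with its probe sets averaged and then did not pass. Without _x_at and _s_at probe sets Ets1 was at 1.05 and Snai2 at 2.59. The neuronal median was -0.16 with cyclic loess, -0.17 with probe sets averaged and -0.16 without EB_PSC 1, when 8 were lower.

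In the trophoblast, Hox, kidney and cilia lists at most 6 members were called in either direction. Over all genes 18.8% were called higher and 25.2% lower. Of 19 trophoblast genes, 4 were called higher and 6 lower. Plac1, a placental surface protein, rose by at least 5.11 ± 0.18, while the placental factor genes Tfap2c (-2.37) and Ascl2 (-1.25) fell. Of 33 Hox and cofactor genes, 4 were called higher, 3 lower and 26 did not pass (median -0.02). Meis2, a cofactor of Hox proteins, rose by at least 3.80 ± 0.15 and was the largest of these by far; the largest rise among true Hox genes was Hoxb2 at 1.43. Of 15 kidney genes, 5 were called higher, led by Lhx1 (3.12), Podxl (2.48) and Eya1 (2.37), and Nphs1 fell by 1.75. Motile cilia genes held 0 higher and 4 lower of 16. Without PSC 3, 3 trophoblast genes were called lower, as with cyclic loess, and without PSC 2 or PSC 3, 2 Hox genes were called higher.

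**Figure D2:**
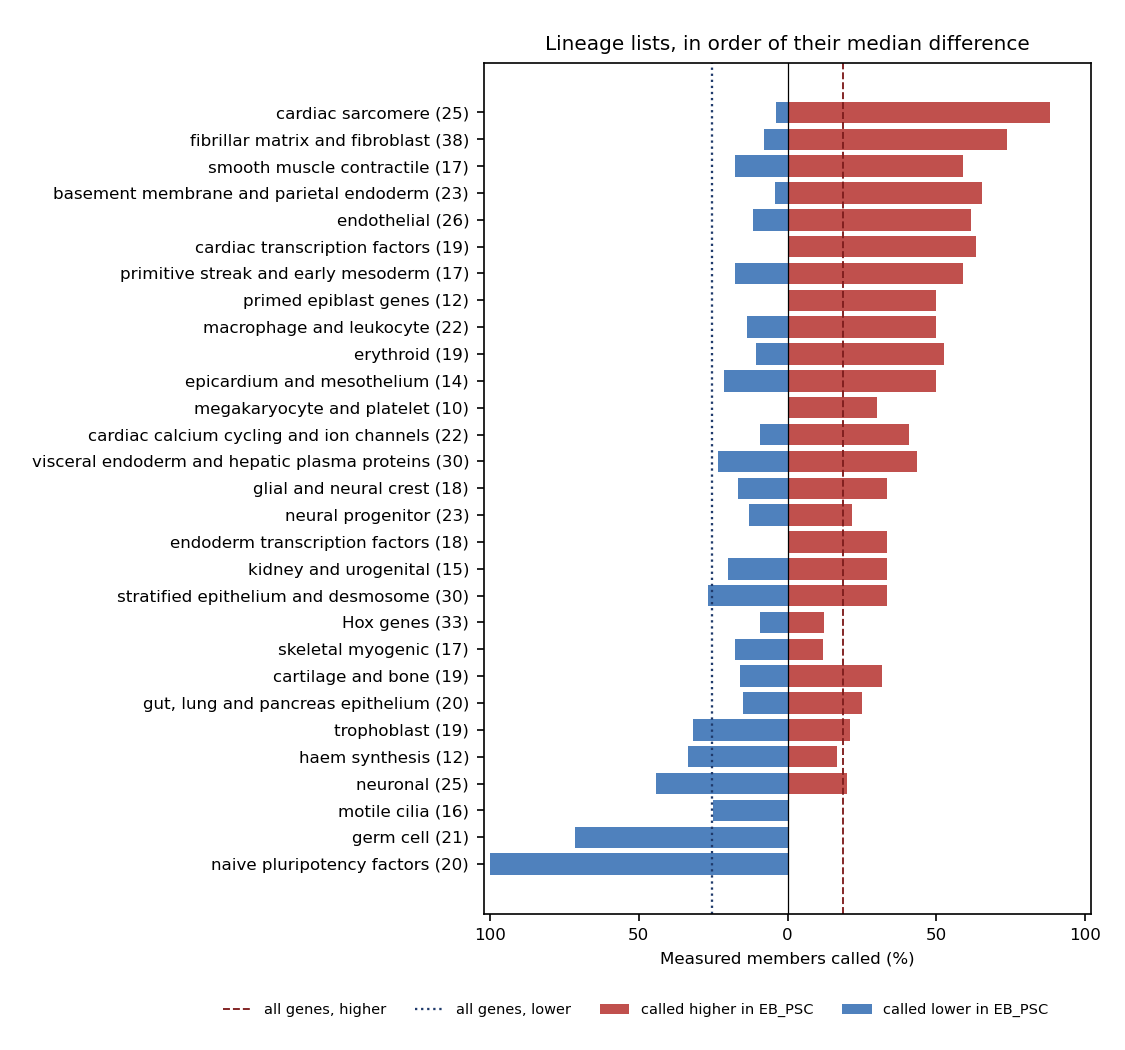
Share of measured members called higher (red, to the right) and lower (blue, to the left) at a limma adjusted p below 0.05 for each lineage list, with the number measured in brackets and lists ordered by median difference. Dashed and dotted lines give the shares over all genes, 18.8% higher and 25.2% lower. The sarcomere, fibroblast matrix and basement membrane lists have the longest bars to the right and the naive pluripotency list the longest to the left.

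Signalling genes were followed by their role, since a pathway can gain receptors while its target genes stay level. In the Wnt pathway, secreted Wnt proteins bind Frizzled receptors with Lrp co-receptors or act through Ror and Ryk receptors. Of 18 ligands, 4 were called higher, 1 lower and 13 did not pass. The 4 higher ones were Wnt5a (3.54), Wnt2 (2.14), Wnt4 (1.80) and Wnt9a (0.88), of which Wnt5a acts mostly outside the beta-catenin branch and Wnt2 is made in early heart and vessels. Of 15 receptors, 10 were called higher and 3 lower (median 0.89). They were led by Ror1 (3.61), Fzd1 (2.98), Fzd6 (2.96), Fzd2 (2.11) and Fzd3 (2.08), and those that fell were Fzd5 (-0.83), Fzd9 (-0.61) and Lrp6 (-0.39). The Wnt5a receptor gene Ror1 read 3.97, 4.31 and 4.34 in PSC and 8.11 and 7.53 in embryoid bodies. Of 12 secreted inhibitors, 6 were called higher and 0 lower. Dkk1, which blocks the Lrp co-receptors, read 4.79, 4.79 and 4.57 in PSC and 8.49 and 7.89 in embryoid bodies, a rise of at least 3.47 ± 0.17 (limma adjusted p = 1.65e-09). Of 10 targets, 4 were called higher and 1 lower with a median of 0.06. Axin2, the most general feedback target, differed by -0.24 ± 0.13 and did not pass (limma adjusted p = 0.169), and the called targets Lef1 (0.96), Sp5 (0.71), Ccnd1 (0.51) and Cdx2 (0.45) stayed below 1 log2 unit. With probe sets averaged Ccnd1 was at -0.11 and the receptor median at 0.58. Ror1, Fzd6 and Fzd3 rose less then, Ror1 at 1.36, Fzd6 at 1.16 and Fzd3 at 0.62. Calls were lost for Lrp6 without EB_PSC 1, EB_PSC 2, PSC 2 or PSC 3 (-0.44 to -0.33) and with cyclic loess (-0.23) and for Cdx2 without EB_PSC 1, EB_PSC 2 or PSC 2 (0.29 to 0.52) and with its probe sets averaged (0.12).

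In the TGF-beta superfamily most calls of the Nodal branch were lower and most of the BMP branch higher. Nodal and activin signal through Smad2 and Smad3 and sustain early pluripotent cells and streak. Of their 7 ligands and antagonists 5 were called lower and 1 higher. Nodal read 10.26, 10.38 and 10.29 in PSC and 9.86 and 9.84 in embryoid bodies and fell by 0.46 ± 0.13 (limma adjusted p = 0.0103). Its inhibitor and target Lefty1 fell by 2.21 ± 0.19, Lefty2 by 0.54 ± 0.17 and the co-receptor gene Tdgf1 by 1.56. BMP signals pass through Smad1 and Smad5 to the Id genes and lead mesoderm and heart formation. Of 10 ligands 5 were called higher and 3 lower, of 8 receptors and Smads 5 and 0, of 12 inhibitors 6 and 0, and of 10 targets 5 and 0. Bmp2, the ligand of endoderm and heart cushion, read 3.19, 3.57 and 3.18 in PSC and 9.23 and 8.57 in embryoid bodies, a rise of at least 5.59 ± 0.18 (limma adjusted p = 4.79e-11). The receptor gene Bmpr2 rose by 2.33. Id2 read 8.51, 8.18 and 8.45 in PSC and 10.48 and 10.63 in embryoid bodies, with rises of 3.08 in Id1 and 2.34 in Id3. Inhibitors rose beside them, among them the activin and BMP antagonist Fst (at least 4.29), Bmper (at least 3.04) and the decoy receptor Bambi (2.35). The falls of Nodal and Lefty2 were small, and calls were lost for Nodal without EB_PSC 2 (-0.45) and with cyclic loess (-0.30) and for Lefty2 without EB_PSC 1, EB_PSC 2 or PSC 3 (-0.58 to -0.37) and with cyclic loess (-0.37). With cyclic loess, or without EB_PSC 2, 3 of the ligands and antagonists were called lower.

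TGF-beta proper had high medians, 2.21 over 5 receptors and Smads and 2.43 over 7 targets. Tgfb2, the ligand of heart and epithelial-mesenchymal transition, read 4.42, 4.71 and 4.54 in PSC and 9.62 and 9.12 in embryoid bodies, while Tgfb1 and Tgfb3 did not pass, the latter passing without PSC 2 (0.63) and without EB_PSC 2 (0.72). The type II receptor gene Tgfbr2, which all 3 ligands need, rose by at least 3.25 ± 0.17 and Tgfbr1 by 2.32 ± 0.15 (limma adjusted p = 3.33e-09 and 3.59e-08). Among targets, Tagln (5.73), Tgfbi (4.24), Tgfb1i1 (3.45) and Ccn2 (2.43) rose, and Tagln and Ccn2 also belong to the smooth muscle and Hippo lists. With all probe sets of a gene averaged, Tgfbr2 was at 1.16, the receptor median was 0.99 and the target median 2.43. Targets of the Hippo effectors Yap and Taz, which respond to stretch and cell shape, held 11 of 16 called higher and 2 lower, with Axl (3.92), Crim1 (2.73), F3 (2.64) and Ccn1 (2.56) after Ankrd1.

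FGF and LIF genes, which hold naive stem cells between renewal and differentiation, held members called in both directions. Of 17 FGF ligands, 3 were called higher and 3 lower. Over all genes 18.8% were called higher and 25.2% lower, and neither count of the FGF ligands exceeds these shares. Fgf4, the autocrine ligand of stem cells, read 10.92, 11.02 and 10.93 in PSC and 8.25 and 7.97 in embryoid bodies and fell by 2.85 ± 0.17 (limma adjusted p = 1.28e-08), as Fgf5 rose. The receptor gene Fgfr2 rose by 1.16. Of 15 feedback and target genes, 4 were called higher and 5 lower, which is only a little above the shares over all genes. The phosphatase genes Dusp4 (2.22) and Dusp6 (1.15) and Myc (1.73) rose, whereas Egr1 (-2.29), Etv4 (-1.13) and Etv5 (-0.92) fell. Of 16 LIF and Stat3 genes, 7 were called lower and 2 higher. Socs3, the feedback inhibitor that reads Stat3 activity, read 11.17, 10.84 and 10.97 in PSC and 8.79 and 9.09 in embryoid bodies, and Stat3 itself fell by 0.87 ± 0.15 (limma adjusted p = 0.000326). Of 15 immediate early genes, 5 were called higher and 7 lower. Fos fell by 3.45 ± 0.15 and Fosb by 2.30 ± 0.16, while Fosl2 rose by at least 4.02 ± 0.17 (limma adjusted p = 5.54e-10 to 6.65e-08). Fos read 12.08, 12.01 and 11.59 in PSC and 8.43 and 8.47 in embryoid bodies. The call was lost for Etv5 without EB_PSC 2 (-0.68), and Fgfr2 was at 0.54 without _x_at and _s_at probe sets. With cyclic loess 7 feedback and target genes and 5 LIF and Stat3 genes were called higher. Fosl2 was at 1.98 with its probe sets averaged.

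Most receptors for vascular and mesenchymal growth factors rose. Of 9 PDGF, VEGF and angiopoietin receptors and co-receptors, 8 were called higher and 0 lower, with Flt4 at -0.02 not passing. Nrp1 read 4.84, 3.91 and 4.34 in PSC and 10.91 and 10.92 in embryoid bodies. The pericyte and fibroblast receptor gene Pdgfrb read 3.91, 3.71 and 4.26 and 9.11 and 8.87. Of 12 ligands, 6 were called higher, led by Angpt1 (3.60) and Vegfc (2.78), and 3 lower. In the insulin-like growth factor system, 6 of 8 ligands and receptors were called higher and 0 lower (median 1.73, or 1.13 with probe sets averaged). Igf2, a fetal growth factor that most tissues transcribe from the paternal copy, read 7.13, 7.22 and 7.32 in PSC and 12.39 and 12.81 in embryoid bodies, a rise of 5.38 ± 0.16 or 41.7-fold (limma adjusted p = 2.38e-11). Both embryoid body arrays thus read far above every PSC array, in cells with no paternal genome. The size depends on the probe set, as Igf2 was at 3.56 with its probe sets averaged. Igf2r, the receptor that clears it, rose by 2.55 ± 0.21 and the adaptor gene Irs1 by 4.06 ± 0.13.

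In the Notch and Hedgehog lists members of the same role moved both ways. Of 6 Notch ligands 1 was called higher, Jag1 at 1.06, and 2 lower, Jag2 (-1.68) and Dll1 (-0.98). Of the targets, 3 of 8 were called higher, Hey2 (1.58), Hey1 (0.72) and Hes1 (0.40). Hey2, a factor of ventricle and artery, read 3.75, 3.72 and 3.82 in PSC and 5.40 and 5.29 in embryoid bodies, dim on both group means. In the Hedgehog list the signal transducer gene Smo rose by 1.56 ± 0.17, the co-receptor gene Gas1 by 2.44 ± 0.15 and Shh by 1.85 ± 0.40, the last with 6.61 on EB_PSC 1 and 8.70 on EB_PSC 2. The target genes Gli1 (-1.97) and Ptch1 (-0.74) fell (limma adjusted p = 1.93e-06 and 0.00059), as did Gli2 (-1.50), while Gli3 rose (1.59). Gli1 read 7.35, 7.57 and 7.60 in PSC and 5.60 and 5.48 in embryoid bodies. Shh was at 0.81 without EB_PSC 2. Calls were lost for Jag1 with its probe sets averaged (0.24) and for Hes1 without EB_PSC 1, EB_PSC 2, PSC 1 or PSC 2 (0.33 to 0.48).

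The retinoid list was mixed, with 9 called higher and 5 lower of 26 (median 0.05) and differences from -2.21 to 5.07. In retinoid metabolism Rdh10, which makes retinal, rose by 3.74 ± 0.12. Cyp26a1, which degrades retinoic acid and is induced by it, rose by 3.27 ± 0.18 from 5.70, 6.05 and 5.46 to 9.14 and 8.87. Aldh1a2, the main embryonic producer of retinoic acid, was dim in both groups and lower by 0.45 ± 0.16 (limma adjusted p = 0.0322). Rarb, a receptor and direct target, rose by at least 2.47. Among chemokines and cytokines, 13 of 22 were called higher and 1 lower. Kitl, the stem cell factor, read 6.12, 5.73 and 5.95 in PSC and 11.11 and 10.93 in embryoid bodies, whereas its receptor gene Kit fell by 1.65 ± 0.15 from 9.02, 8.66 and 8.67 to 7.06 and 7.20. The chemokine gene Cxcl12 rose by at least 3.48 ± 0.13 with its receptor gene Cxcr4 (at least 2.03 ± 0.22). Guidance molecules, which also steer vessels and heart outflow, held 13 of 23 ligands and 10 of 23 receptors called higher, led by Sema3c (3.31), Sema6d (2.93) and Efna5 (2.79) and Unc5b (2.35), Unc5c (1.77) and Epha4 (1.73). Ntn1 fell by 2.13. Of 22 interferon and antigen presentation genes, 3 were called higher and 7 lower. B2m, the light chain of class I molecules, rose by 3.44 ± 0.19 while the heavy chain gene H2-D1 fell by 0.63 ± 0.20. Calls were lost for Aldh1a2 without EB_PSC 1, EB_PSC 2, PSC 1 or PSC 2 (-0.46 to -0.40) and with cyclic loess (-0.39) and for H2-D1 without EB_PSC 1, PSC 1 or PSC 3 (-0.63 to -0.41), with cyclic loess (-0.50), with its probe sets averaged (-0.08) and without _x_at and _s_at probe sets (-0.35). Sema6d was at 0.72 and Cxcl12 at 1.83 with their probe sets averaged.

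**Figure D3:**
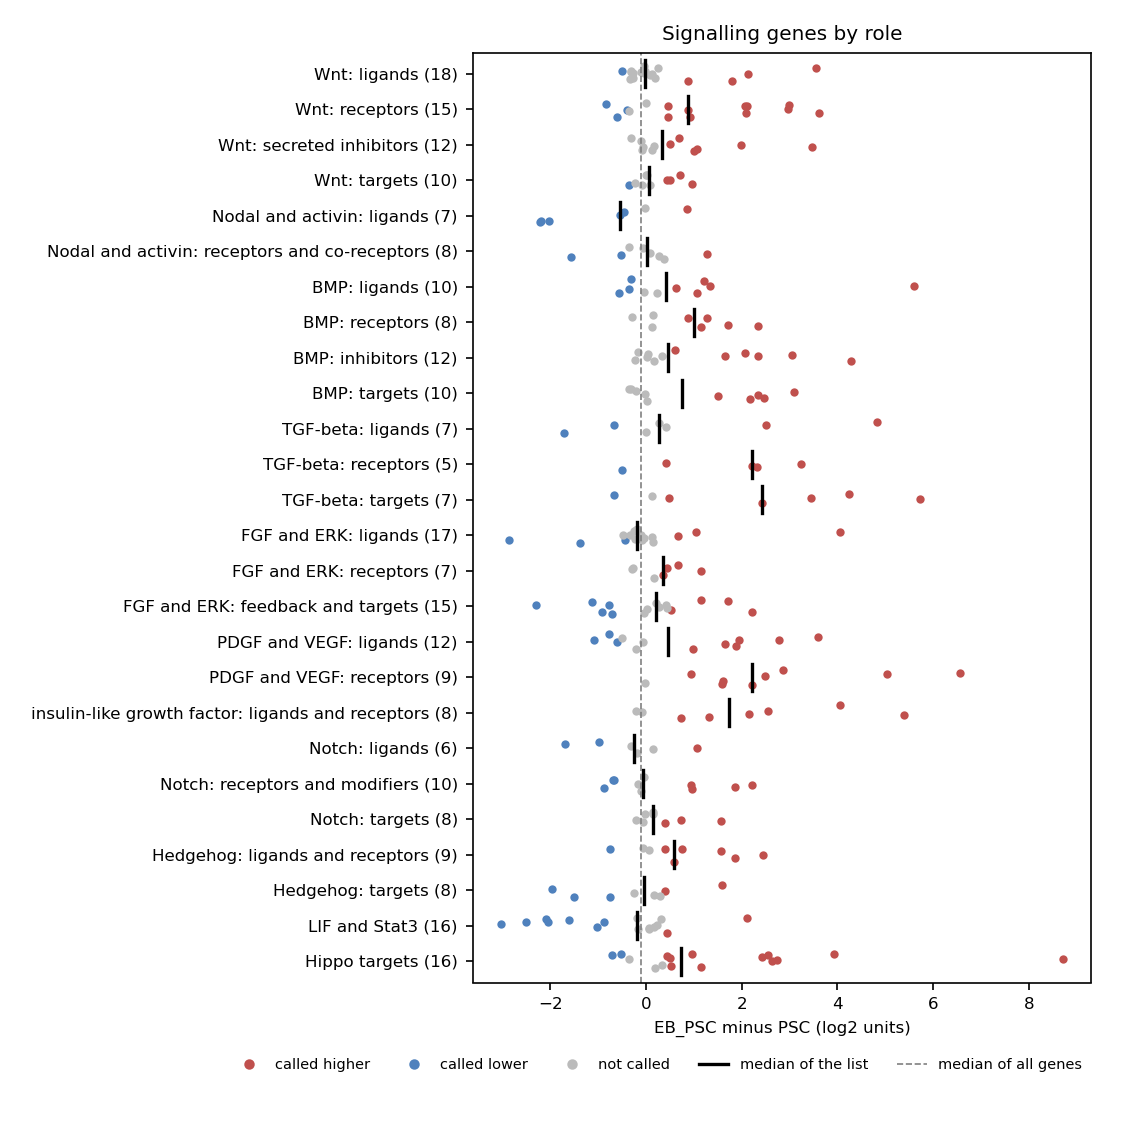
Difference between embryoid bodies and PSC (log2 units, horizontal axis) for each measured member of the signalling lists, split by role, with the number of members in brackets; red and blue points were called higher and lower, grey points were not called, a black bar is the median of the list and the dashed line the median of all genes, -0.09. Receptors of TGF-beta, PDGF and VEGF and the insulin-like growth factor genes lie to the right, while Nodal ligands lie to the left.

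Glycolytic genes were lower in embryoid bodies. Glycolysis turns glucose into pyruvate in the cytosol and runs at a high rate in pluripotent cells. Of 20 enzymes, 15 were called lower, 2 higher and 3 did not pass, with a median of -0.98. The falls reached across the pathway, from hexokinase to lactate dehydrogenase. Hk2 read 11.74, 11.81 and 11.76 in PSC and 10.68 and 10.37 in embryoid bodies and fell by 1.25 ± 0.14. For the committed step, Pfkl fell by 2.58 ± 0.23 and Pfkp fell by 1.76 ± 0.13, with limma adjusted p of 8.48e-07 and 1.28e-07. Pkm, the last step to pyruvate, fell by 1.75, Aldoc by 2.49, Ldha by 0.89 and Ldhb by 1.15. Ldha read 12.33, 12.36 and 12.43 in PSC and 11.50 and 11.48 in embryoid bodies, so a bright enzyme gene lost level without becoming dim. The regulator gene Pfkfb3 (0.76) and the muscle enolase gene Eno3 (0.52) were the 2 called higher. Glucose entry differed by transporter: Slc2a3 fell by 0.93 ± 0.14 (limma adjusted p = 8.42e-05), while Slc2a1 differed by 0.32 ± 0.16 and did not pass (limma adjusted p = 0.114). It passed with cyclic loess (0.44), without the R1 arrays (0.32) and without ESC 2 (0.32), and its sign turned with its probe sets averaged. Among hypoxia-responsive genes 3 of 16 were called higher and 6 lower, the largest being Ddit4 (-2.29), Egln3 (-1.27) and Bnip3 (-1.06). The call was lost for Eno3 without EB_PSC 1, EB_PSC 2, PSC 1 or PSC 2 (0.42 to 0.54).

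Mitochondrial genes did not move as a block. Of 74 measured subunits of the respiratory chain, 17 were called higher, 17 lower and 40 did not pass (median 0.03). With cyclic loess the counts were 25 and 13, and without EB_PSC 2 they were 10 and 15, so neither direction holds for the chain as a whole. The largest rise among these subunits was Ndufa4 (1.49). In complex I Ndufa5 (1.00) rose and Ndufa10 (-0.97) and Ndufv1 (-0.65) fell. In complex IV the testis isoform gene Cox6b2 fell by 2.03 ± 0.14 and the muscle isoform gene Cox7a1 fell by 1.14 ± 0.13, while the general form Cox6b1 rose by 0.65 ± 0.13. Of 21 genes of the citrate cycle, 9 were called lower, led by Idh3g (-0.96), Sdhc (-0.84) and Pcx (-0.83), and 2 higher, Mdh1 (0.78) and Idh2 (0.45). Ppargc1a, the inducible coactivator of mitochondrial biogenesis, was dim in both groups and differed by 0.13 ± 0.13 (limma adjusted p = 0.443). Fatty acid oxidation held 7 higher and 8 lower of 23. Lpl, which frees fatty acids from lipoproteins, read 9.18 on EB_PSC 1 and 10.88 on EB_PSC 2 against 7.55, 7.51 and 7.41 in PSC. Cpt1a, the liver-type gate of fatty acid entry into mitochondria, read 9.33, 9.49 and 9.42 in PSC and 6.96 and 7.26 in embryoid bodies and fell by 2.30 ± 0.14 (limma adjusted p = 2.19e-08). Without EB_PSC 2 fatty acid oxidation held 5 higher and 5 lower. Calls were lost for Idh2 without EB_PSC 2 or PSC 1 (0.37 to 0.38) and with its probe sets averaged (-0.04) and for Ndufa10 with its probe sets averaged (-0.35), and Mdh1 was at 0.47 without _x_at and _s_at probe sets.

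Most genes of serine, one-carbon and nucleotide synthesis were lower. Of 14 serine and one-carbon genes, 11 were called lower and 1 higher (median -0.94). Psat1 and Phgdh of serine synthesis fell by 2.30 ± 0.14 and 0.74 ± 0.13. The mitochondrial folate enzyme Shmt2 fell by 2.19 ± 0.17, and Gldc, the glycine decarboxylase that mouse stem cells express strongly, read 10.97, 10.94 and 10.93 in PSC and 9.33 and 8.95 in embryoid bodies. Tdh is not analysed here. Of 21 genes of nucleotide synthesis, 15 were called lower and 0 higher (median -0.62), led by Gart (-2.13), Prps1 (-1.67) and Cad (-1.41), which serve purine, ribose-phosphate and pyrimidine synthesis. Amino acid carriers of growing cells, Slc1a5 (-1.92), Slc7a5 (-1.73) and Slc3a2 (-1.65), fell as well, while glutamine synthetase, Glul, rose by 1.29 ± 0.14. Cholesterol synthesis held 5 of 20 lower, a share close to the 25.2% of all genes, and 2 higher. Its regulator Srebf2 (-1.56) and its last enzyme Dhcr7 (-2.07) were among the 5. Oxidant defence was mixed, 9 higher and 8 lower of 27. Gpx8, a peroxidase of the endoplasmic reticulum, rose by 4.27 ± 0.20, and Sod2, the mitochondrial dismutase, fell by 1.30 ± 0.16. Glul was at 0.47 with its probe sets averaged, and with cyclic loess 5 cholesterol genes were called higher.

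Of 14 genes of glycogen and matrix sugar synthesis, 7 were called higher, 0 lower and 7 did not pass. Has2, the hyaluronan synthase of embryonic heart and mesenchyme, read 4.33, 4.51 and 4.57 in PSC and 9.56 and 8.96 in embryoid bodies, a rise of at least 4.79 ± 0.18 (limma adjusted p = 1.75e-10). The chondroitin sulfotransferase genes Chst15 (3.29) and Chst11 (2.42) and the precursor enzymes Ugp2 (1.40) and Ugdh (0.81) followed. Iron genes held 2 higher and 2 lower of 10, with a median of 0.0008. Among them the copper oxidase Heph rose by at least 4.26 ± 0.15 and the exporter Slc40a1 by 2.97 ± 0.17. Of 17 liver-type enzymes, 2 were called higher and 5 lower. The rise of Tdo2, a tryptophan dioxygenase, from 3.50, 3.39 and 3.30 to 8.29 and 8.41 stood alone beside Cyp7b1 (0.84), while the urea cycle genes Cps1 and Otc were dim in both groups and did not pass. In the lysosome list Ctsh rose by at least 5.22 ± 0.14; 5 of 21 were called higher and 7 lower. Without EB_PSC 1, 2 liver-type enzymes were called lower, and without PSC 3 the count was 3.

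Most genes of cell division were lower. Of 26 replication factors, 23 were called lower and 0 higher (median -1.10), and of 24 mitotic factors 18 lower and 0 higher (median -0.83). Mki67, the proliferation antigen, read 11.25, 11.16 and 11.14 in PSC and 10.76 and 10.55 in embryoid bodies and fell by 0.53 ± 0.12 (limma adjusted p = 0.00317). The largest falls were Uhrf1 (-2.02), Pole (-1.93) and Lig1 (-1.75) in replication, where Pcna (-0.04) did not pass, and Ccnb2 (-1.69), Prc1 (-1.65) and Bub1b (-1.59) in mitosis. Ribosome biogenesis factors fell in 16 of 20, led by Bop1 (-1.35), Polr1a (-1.25) and Dkc1 (-1.21), whereas of 42 ribosomal proteins 6 were called higher and 5 lower. The G1 regulators exchanged members. Ccnd2 read 7.19, 7.17 and 7.51 in PSC and 10.65 and 11.03 in embryoid bodies and rose by 3.55 ± 0.15, whereas Ccne1 (-1.29) and Ccnd3 (-1.20) fell. Among the inhibitors, Cdkn1c, which arrests precursors and is transcribed from the maternal copy, rose by 2.97 ± 0.21 from 7.78, 7.89 and 7.68 to 10.65 and 10.85, Cdkn2b rose by 3.36 ± 0.14 and Cdkn1a by 0.44 ± 0.15 (limma adjusted p = 5.54e-10 to 0.0324). Of the ribosomal proteins, 2 were called lower without EB_PSC 1, EB_PSC 2 or with cyclic loess and 3 without PSC 2, PSC 3 or ESC 3. The call was lost for Cdkn1a without EB_PSC 1, EB_PSC 2 or PSC 3 (0.33 to 0.51).

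Chromatin genes fell in part. Of 10 DNA methylation genes, 7 were called lower and 0 higher. Dnmt3l, the cofactor of de novo methylation, fell by 2.06 ± 0.17 and Tet1, which oxidises methylcytosine, by 2.04 ± 0.15, while Dnmt3b differed by 0.26 ± 0.13 and did not pass (limma adjusted p = 0.128). It passed with cyclic loess (0.39), and its sign turned with its probe sets averaged. Of 18 Polycomb subunits, 11 were called lower, led by Phc1 (-2.14), Cbx7 (-1.92) and Jarid2 (-1.52), and 4 higher, led by Bmi1 (3.07) and Phc2 (1.59). Most adhesion genes were higher: 11 of 15 cadherins and factors of the epithelial-mesenchymal switch were called higher and 0 lower. Cdh2, the cadherin of heart and neural tissue, read 5.99, 5.56 and 6.02 in PSC and 10.04 and 9.59 in embryoid bodies, and Cdh11, of mesenchyme, rose by at least 5.38 ± 0.16. Cdh1, the epithelial cadherin of stem cells, differed by -0.11 ± 0.13 with overlapping arrays (limma adjusted p = 0.546), a sign that turned with cyclic loess. Of 15 integrins 8 were called higher, led by Itgb8 (4.43), Itga8 (3.09) and Itgb1 (2.27). With all probe sets averaged, 2 Polycomb genes were called higher.

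**Figure D4:**
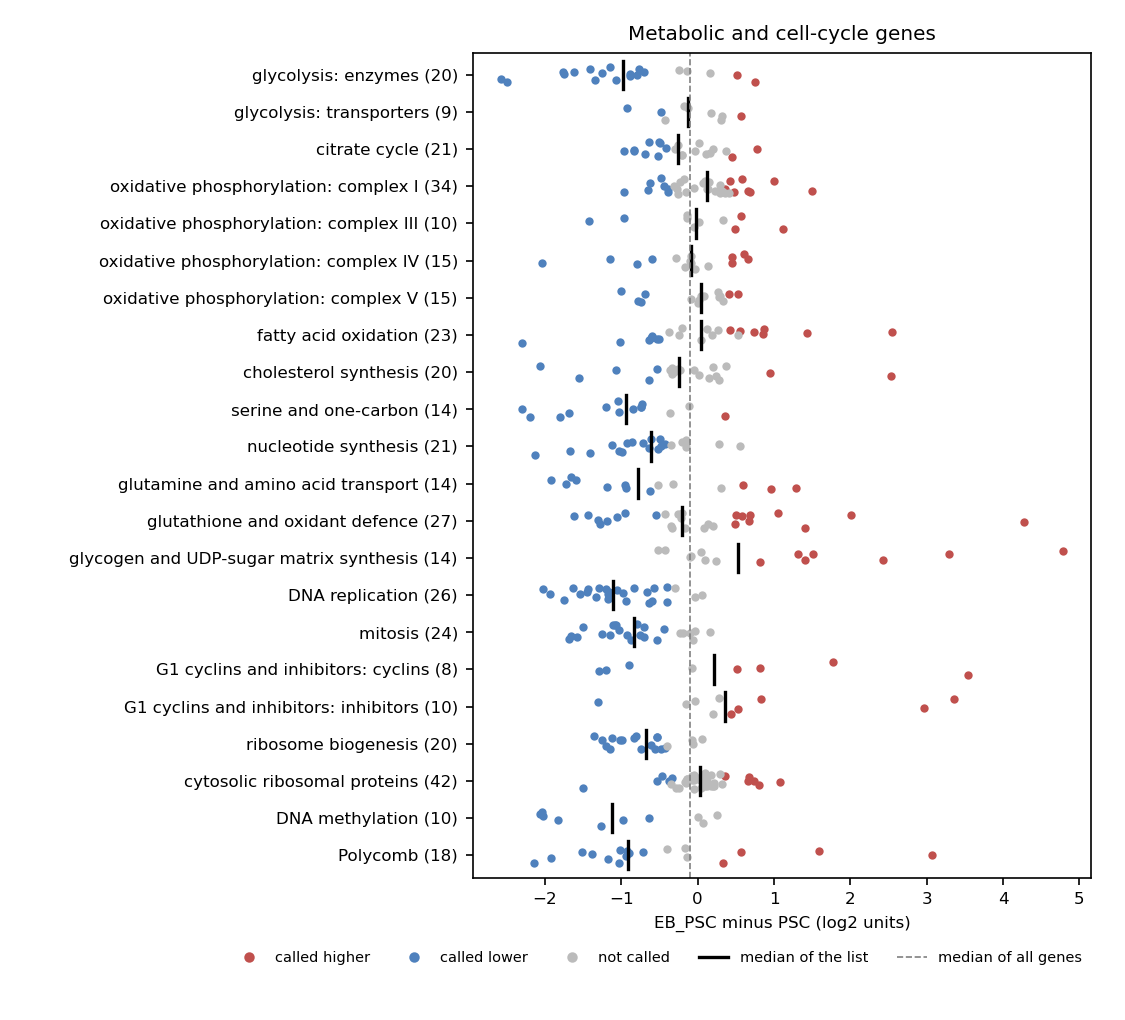
Difference between embryoid bodies and PSC (log2 units, horizontal axis) for each measured member of metabolic, cell-cycle, ribosome and chromatin lists; colours, bars and the dashed line (median of all genes, -0.09) mark called members, list medians and the background. Glycolytic enzymes, serine and nucleotide synthesis, replication and mitosis lie to the left, whereas respiratory chain subunits and ribosomal proteins lie on both sides of 0.

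The embryoid body arrays agreed closely, though less than the stem cell arrays. Across 18194 genes, which are not independent replicates, Pearson's r between EB_PSC 1 and EB_PSC 2 was 0.993, against 0.9955 to 0.9961 for the 3 pairs of PSC arrays. The SD of the difference between the pair was 0.288 log2 units, against 0.216 to 0.229 between PSC arrays. In 123 genes (0.676%) the pair differed by at least 1 log2 unit and in 18 by at least 2, against 4 to 21 genes and 0 between PSC arrays. EB_PSC 2 was the higher in 80 of the 123 and EB_PSC 1 in 43. Of the 123, 85 were called higher than PSC, 17 lower and 21 did not pass, so most of the disagreement sat in genes that rose. In 163 of the 7995 called genes (2.04%) the gap within the pair was larger than the difference from PSC.

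Several of the genes with the widest gap are expressed in macrophages and related leukocytes, and 3 of the 12 named here, Ctss, Tyrobp and Fcgr3, are on the macrophage and leukocyte list. Among genes above the dim limit in embryoid bodies, 12 led: Ccl9, Ctss, Tyrobp, Ms4a6d, Mpeg1, Serpina1b, Ms4a6b, Slitrk4, Shh, C3ar1, Fcgr3 and Ednrb. Ctss, a lysosomal protease of antigen-presenting cells, read 4.01, 3.94 and 4.07 in PSC, 4.34 on EB_PSC 1 and 7.09 on EB_PSC 2. Tyrobp, the signalling adaptor of myeloid receptors, read 5.00, 4.97 and 4.41 in PSC, 5.38 on EB_PSC 1 and 7.78 on EB_PSC 2. Mpeg1, a pore-forming protein of macrophages, read 4.82, 4.81 and 4.87 in PSC, 5.09 on EB_PSC 1 and 7.39 on EB_PSC 2. In these genes EB_PSC 1 lay close to PSC and EB_PSC 2 stood well above both. Slitrk4, a neuronal membrane protein, was the 1 of the 12 that was higher on EB_PSC 1, with 7.76 against 5.61. C3ar1 did not pass, but did so with its probe sets averaged (1.35) and without EB_PSC 1 (1.97). For 6 genes the call rests on that array, as it was lost for Ccl9 without EB_PSC 2 or PSC 2 (0.31 to 1.71) and with a trended robust prior (1.77), for Ctss without EB_PSC 2 (0.33) and with a trended robust prior (1.70), for Tyrobp without EB_PSC 2 (0.59) and with a trended robust prior (1.79), for Ms4a6d without EB_PSC 2 (0.54) and with a trended robust prior (1.70), for Mpeg1 without EB_PSC 2 or PSC 2 (0.26 to 1.40) and with a trended robust prior (1.41) and for Fcgr3 without EB_PSC 2 (0.41). Smaller differences were kept without EB_PSC 2 by Ms4a6b (0.61), Serpina1b (1.01) and Shh (0.81), and without EB_PSC 1 by Slitrk4 (1.76).

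Most of the macrophage and leukocyte list was higher on that array. Of its 22 measured members, 11 were called higher, 3 lower and 8 did not pass (median 0.44). EB_PSC 2 was above EB_PSC 1 in 19 members, by 1 log2 unit or more in 7, and the median of EB_PSC 1 minus EB_PSC 2 was -0.51. The mean over the list was 5.39, 5.43 and 5.34 on the PSC arrays, 5.45 on EB_PSC 1 and 6.31 on EB_PSC 2. Without EB_PSC 2, 4 members were called higher and 3 lower and the median was -0.03; without EB_PSC 1, 15 were higher and 2 lower and it was 0.84. Ptprc, the pan-leukocyte phosphatase, read 3.41, 3.42 and 3.21 in PSC, 4.11 on EB_PSC 1 and 6.57 on EB_PSC 2. Csf1r, the growth factor receptor of macrophages, read 6.37, 6.20 and 6.31 in PSC and 6.72 and 7.14 in embryoid bodies, a rise of 0.64 ± 0.14 (limma adjusted p = 0.00222). Of the defining markers, Ptprc, Adgre1 and C1qa had a dim mean even in embryoid bodies, and C1qa, which did not pass, did so without EB_PSC 1 (0.61). Mrc1, the mannose receptor that endothelium also carries, was high on both arrays, 7.10 and 7.01 against 4.84, 4.79 and 4.89. Cd68 and Laptm5 were bright in PSC and fell by 2.29 and 1.66. Without PSC 3, 7 members were called higher. Ptprc was at 0.76 without EB_PSC 2, Laptm5 at -0.34 without _x_at and _s_at probe sets, and calls were lost for Csf1r without _x_at and _s_at probe sets (0.02) and for Adgre1 without EB_PSC 2 or PSC 3 (0.40 to 0.42). The part of macrophage RNA in other differences was not tested.

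Other lists leaned to 1 array with smaller gaps. In the heart sarcomere list EB_PSC 2 was above EB_PSC 1 in 20 of 25 members, with a median of EB_PSC 1 minus EB_PSC 2 of -0.32; without EB_PSC 2 18 members were called higher and the median was 2.12. Visceral endoderm genes with a wide gap, Afp (-1.48), Rbp4 (-1.35), Ttr (-1.36) and Serpina1b (-2.29, as EB_PSC 1 minus EB_PSC 2), were all higher on EB_PSC 2, yet Cubn (1.02) was higher on EB_PSC 1. Over that whole list EB_PSC 1 was the higher in 13 genes and EB_PSC 2 in 17. The transcription factor genes Lhx1 (1.18), Twist1 (1.47), Prrx1 (1.46) and Nr2f1 (1.69) were higher on EB_PSC 1, and the last 2 were named after their values were seen. In the early mesoderm list EB_PSC 1 was the higher in 10 genes and EB_PSC 2 in 7, and only 1 of its genes had a gap of at least 1 log2 unit. Lists of growth genes leaned to EB_PSC 1. EB_PSC 1 was above EB_PSC 2 in 23 of 26 replication factors (median gap 0.18), 23 of 24 mitotic factors (0.21), 20 of 20 ribosome biogenesis factors (0.23) and 18 of 20 cholesterol synthesis genes (0.25). Of the 1350 genes that fell by at least 1 log2 unit, 1002 (74.2%) were higher on EB_PSC 1, against 53.3% of all genes. With a repeated quantile normalization these shares were 67.5% and 48.2%, and with cyclic loess 69.6% and 53%. EB_PSC 2 thus read further from PSC in these falling genes, by a median of 0.18 log2 units, or 0.12 and 0.13 with the other scalings. Against PSC, Serpina1b was at 1.01 without EB_PSC 2, Nr2f1 at 0.80 without EB_PSC 1, and the call was lost for Prrx1 without EB_PSC 1 (0.56).

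**Figure D5:**
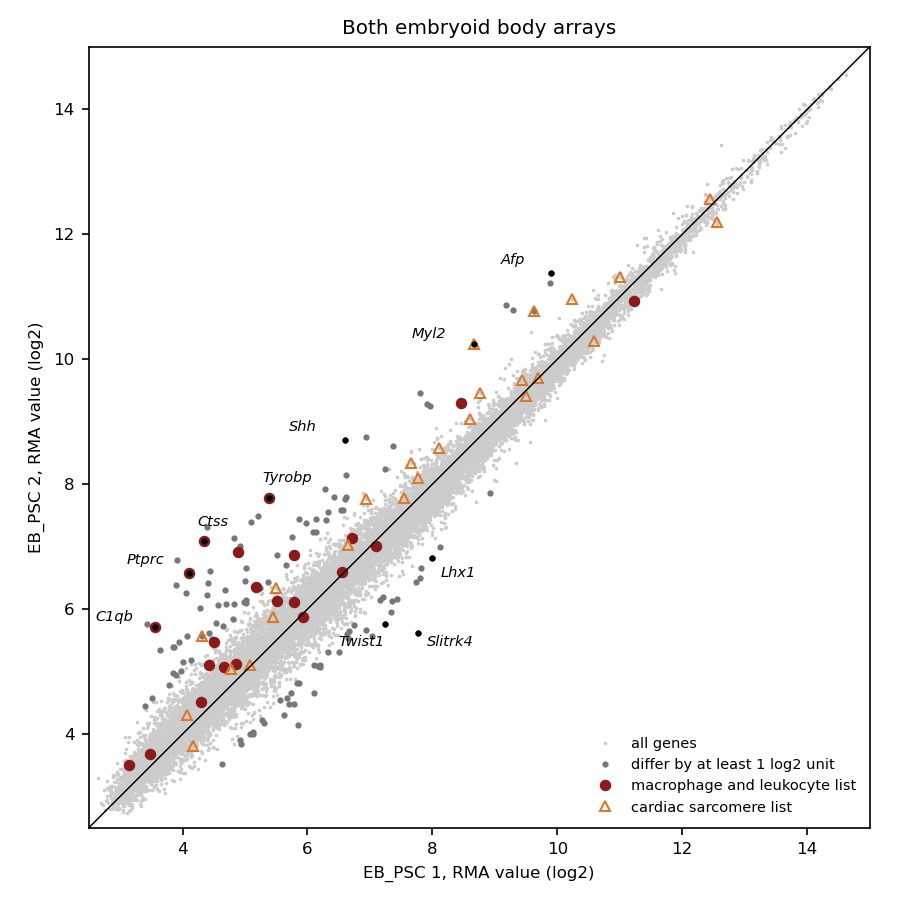
Values of 18194 genes on EB_PSC 1 (horizontal) and EB_PSC 2 (vertical), both log2, with the line of equal values; dark points differ by at least 1 log2 unit, filled red circles are the macrophage and leukocyte list and open triangles the cardiac sarcomere list. The pair correlates at 0.993, macrophage genes such as Ctss, Tyrobp and Ptprc lie above the line, and Lhx1, Twist1 and Slitrk4 lie below it.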

How the data were processed

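RNA of 8 mouse samples (3 PSC, 2 EB_PSC, 3 ESC) was hybridised to Affymetrix arrays, 1 array each, as biotin-labelled RNA. The deposited values are log2 expression values summarised by RMA, per the submitters' processing notes; whether all arrays were normalized together is not given in the sources used here. Of 45101 probe sets, 34958 have 1 gene symbol in GEO's platform annotation, 932 several and 9211 none; 34754 matched RefSeq by gene ID. The brightest probe set by its mean over the 8 arrays stood for a gene. Groups were taken from the titles, and all 8 arrays were fitted in limma 3.58.1 (R 4.3.3) with Benjamini-Hochberg adjustment over 18194 genes, two-sided; called means an adjusted p below 0.05. Tables were made with pandas 2.3.3, NumPy 2.4.6 and SciPy 1.17.1. The number of arrays, not a read depth, limits the precision. The fit was tested on simulated data with 50 genes changed at each size among 18194, and recovered 16% of changes of 0.5 log2 units, 78% of 1 and 100% of 2. Far fewer genes changed there than were called in the data, so the adjusted p was harder to pass. These shares do not give the sensitivity of the comparison itself.

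Genes were named as the 6 largest called members of a list role whose arrays do not overlap and the 3 largest in the opposite direction, the 12 largest rises and falls of all, the 12 largest gaps between the embryoid body arrays among genes that were not dim, a fixed set of markers, and any member of a kind counted 5 times or fewer. The genes compared and the 73 lists (1628 genes, 1508 measured) were chosen with earlier results of these data known, and lists were not tested. Alternatives changed the normalization, the filter, the probe set, the samples, the variance prior, the array weights and the block, and left out each array in turn. Brachyury and Tdh are not analysed here.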

Additional observations from a re-analysis of the deposited data

How the results depend on the processing

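With 2 embryoid body arrays, small differences pass or fail on 1 array. The simulation, in which far fewer genes changed than were called in the data, recovered few changes of 0.5 log2 units. Of the 346 called genes that are named, 297 kept direction and call in every alternative run, 10 lost the call with cyclic loess, 19 without EB_PSC 1 and 31 without EB_PSC 2. The number of called genes ran from 6687 to 8370 as each array was left out in turn, with 2974 to 3546 higher and 3684 to 4824 lower. Asking for at least 1 log2 unit left 2907 genes, 1557 higher and 1350 lower. With cyclic loess 54% of the called genes were higher, against 42.7%, as the median of all genes shifted by 0.09. The SD between the embryoid body arrays ran from 0.256 to 0.288 over the normalizations, filters and probe set choices.

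The labels number the replicates of each group, and whether equal numbers pair the samples could not be decided. Deviations from the group mean correlated at -0.14 between EB_PSC 1 and PSC 1 and at 0.04 between EB_PSC 2 and PSC 2. With only 2 embryoid body arrays the deviations of 1 mirror those of the other, so these values are not separate checks. With the replicate number as a block 7517 genes were called, 3259 higher and 4258 lower, and of the named genes Adgre1 (0.53), Atp2a2 (-0.38), Cdkn1a (0.35), Des (-0.46), Fn1 (0.38), Lrp6 (-0.38) and Wt1 (0.43) lost the call.

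Called genes changed sign as follows: with probe sets averaged Atp2a2 (0.11), Ccnd1 (-0.11) and Idh2 (-0.039) and without _x_at and _s_at probe sets Fech (0.27). List medians of at least 0.1 in size changed sign as follows: with probe sets averaged FGF and ERK, feedback and targets (-0.073), pentose phosphate (0.0081) and G1 cyclins and inhibitors, cyclins (-0.062); with cyclic loess pentose phosphate (0.013) and lysosome (0.0057). The macrophage and leukocyte median ran from -0.032 to 0.84 as each array was left out in turn. A further 23 list medians, all under 0.1 in size, changed sign in at least 1 alternative. With genes dim in both groups left out, medians were -1.51 for germ cell, 1.07 for early mesoderm, 1.34 for cardiac factors, 2.70 for smooth muscle and 1.61 for visceral endoderm genes. Genes that had not passed changed sign in these settings. With cyclic loess Cdh1 (0.027), Flt4 (0.080), Hba-a1 (0.047), Klf1 (0.0057), Krt5 (0.11), Myf5 (0.015), Myod1 (0.056) and Pcna (0.067). With probe sets averaged Dnmt3b (-0.22), Flt4 (0.25), Hnf4a (0.26), Slc2a1 (-0.080), Smad2 (-0.12) and Trp63 (0.061). With a repeated quantile normalization Hba-a1 (0.0071) and Myf5 (0.021). With array weights Krt5 (0.0027) and Myf5 (0.0024). With the replicate block Tcf21 (-0.045). As each array was left out in turn the differences of such genes ran through 0 in C1qa (-0.071 to 0.61), C3ar1 (-0.12 to 1.97), Flt4 (-0.086 to 0.089), Hba-a1 (-0.074 to 0.086), Hnf4a (-0.30 to 0.081), Krt14 (-0.52 to 0.024), Krt5 (-0.065 to 0.067), Myf5 (-0.047 to 0.073), Myod1 (-0.22 to 0.16), Pax6 (-0.40 to 0.0029), Rhag (-0.025 to 0.64), Tcf21 (-0.024 to 0.049) and Trp63 (-0.22 to 0.0091).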
